A study of Homo sapiens with 4 samples.

Results

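Molecular chaperones of the heat shock protein, DNAJ, BAG and chaperonin families were examined in KBM5 cells, a human chronic myeloid leukemia line that carries the BCR-ABL kinase. The members were every gene whose symbol begins with HSP and a family letter (A, B, D, E or H) or with HSP90, DNAJ (A, B or C), BAG or CCT and a number, plus TCP1. Of 214 matching entries, 9 read-through or antisense entries with a hyphen and 116 pseudogenes were left out, which left 89 genes of the 50868 in the deposited table. A mean of at least 1 FPKM (fragments per kilobase of exon, corrected for depth) over the libraries was reached by 60 of them. Of the other 29, 12 were listed at 0 in all 4 libraries, the muscle and heart small heat shock proteins HSPB2 and HSPB3 among them.

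Messenger RNA was sequenced in 4 libraries, 1 for each group. The groups were cells labelled CTR, DSF, IM, and IM-DSF. The labels spell out neither abbreviation and give no dose, time or solvent. IM is read here as imatinib, an inhibitor of the BCR-ABL kinase, and DSF as disulfiram, an aldehyde dehydrogenase inhibitor, and the codes are kept. All 4 groups are the same cell line, so nothing here separates this line from other leukemia cells. With 1 library per group a difference is between 2 libraries and no test of a condition could be run. The label gives blood as the source, and 9 of 10 myeloid progenitor genes listed as markers were past the filter, whereas none of 8 erythroid, 4 T cell, 5 B cell, or 5 epithelial and fibroblast markers was. KIT was listed at 0 in all 4 libraries.

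Chaperones bind unfolded or partly folded proteins and keep them from aggregating. HSP70 proteins work in cycles of ATP hydrolysis that J-domain proteins (DNAJA, DNAJB and DNAJC) start and that exchange factors of the HSP110 and BAG families complete. HSP90 receives kinases and hormone receptors from HSP70, and BCR-ABL is a known client of it. HSP60 with its lid HSP10 folds proteins inside mitochondria, and the CCT ring, built from the products of TCP1 and the CCT genes, folds actin and tubulin in the cytosol. Many of the cytosolic and mitochondrial genes are induced through the heat shock factor HSF1, which binds inverted repeats of GAA, whereas the chaperones of the endoplasmic reticulum answer to the unfolded protein response.

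The promoter sequences are shown first. Of the 6 members past the filter with a heat shock element, 5 were at least 0.5 log2 units lower in IM-DSF against CTR. So were 16 of 48 members whose promoter lacks it, 5 of 33 other genes that hold it, and 10.4% of all genes past the filter. The part of the motif in these differences was not tested. Windows from 250 bases before to 50 bases after each start site (RefSeq, GRCh38.p14) were found for 78 of the 89 members. Each was searched on both strands for 3 alternating units, GAANNTTCNNGAA or its reverse complement TTCNNGAANNTTC. The motif was present in 7 of 78 members (8.97%) and in 166 of 27305 genes with a window (0.608%). The 7 members are HSPA8, HSP90AA1, HSP90AB1, HSPD1, DNAJA1, DNAJB6 and HSPA6, the last of which did not reach the filter. Stretches of 29 bases around the motif are given 5′ to 3′ on the gene's strand, with the motif in capitals. For HSPD1 the capitals cover 2 overlapping matches. They come from chr11:123062346-123062374 and chr11:123062171-123062199 (HSPA8, minus strand), chr14:102087112-102087140 (HSP90AA1, minus strand), chr6:44247770-44247798 and chr6:44247823-44247851 (HSP90AB1, plus strand), chr2:197500062-197500090 (HSPD1, minus strand), chr9:33025268-33025296 (DNAJA1, plus strand) and chr7:157336865-157336893 (DNAJB6, plus strand). The motif begins 230 and 55 bases before a start site of HSPA8, 88 before that of HSP90AA1, 165 and 112 before that of HSP90AB1, 245 before one of HSPD1, 131 before that of DNAJB6, and 4 bases after that of DNAJA1. The HSPD1 distance is taken from the start at 197499840. Its motif lies downstream of the other RefSeq start of HSPD1, 197500274. That motif also lies outside the promoter window of HSPE1, which is counted as lacking it. The windows of HSPA8, HSP90AA1, HSPD1 and DNAJA1 overlap annotated exons of some transcripts in GENCODE 29. A match describes letters only and is not a measured binding site.
HSPA8 far: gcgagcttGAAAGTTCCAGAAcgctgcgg
HSPA8 near: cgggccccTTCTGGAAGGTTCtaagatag
HSP90AA1: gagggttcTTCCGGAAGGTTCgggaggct
HSP90AB1 far: ggagcaggTTCTGGAAGATTCatgggctc
HSP90AB1 near: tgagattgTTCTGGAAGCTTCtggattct
HSPD1: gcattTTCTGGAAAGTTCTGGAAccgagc
DNAJA1: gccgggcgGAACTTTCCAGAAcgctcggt
DNAJB6: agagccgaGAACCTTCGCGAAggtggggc

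The endoplasmic reticulum stress element, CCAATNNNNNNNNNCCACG, was searched in the same way as a contrast, since it marks targets of the unfolded protein response. It was found in 2 of 78 members (2.56%), HSPA5 and HSP90B1, against 25 of 27305 genes (0.0916%). It lies at chr9:125241386-125241414 on the minus strand for HSPA5, and at chr12:103930211-103930239 and chr12:103930316-103930344 on the plus strand for HSP90B1. The last of these holds the reverse complement.
HSPA5: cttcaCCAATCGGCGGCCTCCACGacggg
HSP90B1 far: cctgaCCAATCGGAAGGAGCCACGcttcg
HSP90B1 near: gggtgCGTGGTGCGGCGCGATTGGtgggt

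Chaperone transcripts made up a smaller share of the total in each treated library. The 89 members summed to 3827 FPKM in CTR and 3294 in DSF, against 2781 in IM and 2481 in IM-DSF, which is 1.37%, 1.16%, 0.967% and 0.894% of all FPKM. HSP90AB1 alone held 29.5% of the members' mean sum, and with HSPD1, HSP90AA1, HSPA5 and HSP90B1 it held 50.6%. Of the 60 members past the filter, 39 were highest in CTR (65%) and 35 were lowest in IM-DSF (58.3%). Over all 11004 genes past the filter these shares were 30.03% and 30.34%. Over the 1528 genes averaging 20 FPKM or more they were 46.7% and 50.4%. The order CTR, DSF, IM, IM-DSF from high to low was found in 26 of the 60 members (43.3%). It was found in 13.8% of all genes past the filter and in 31.1% of those averaging 20 FPKM or more. The latter is the closer background for abundant genes, and it was chosen after seeing the data. All HSP90, HSP110, HSP60/HSP10 and small HSP genes past the filter showed that order, and 2 of 20 DNAJC genes did. Fewer cells expressing a gene and less RNA per cell cannot be told apart in such libraries. The 10 myeloid markers summed to 1678 FPKM in CTR and 2213 in DSF, with 2629 in IM and 2307 in IM-DSF, a sum held mostly by the granule genes PRTN3, ELANE, CTSG and AZU1. Of the 9 past the filter, 2 were at least 0.5 log2 units higher in IM-DSF than in CTR and none that much lower (median 0.12), and 6 lay below IM in IM-DSF. Their part in the chaperone differences was not tested.

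**Figure D1:**
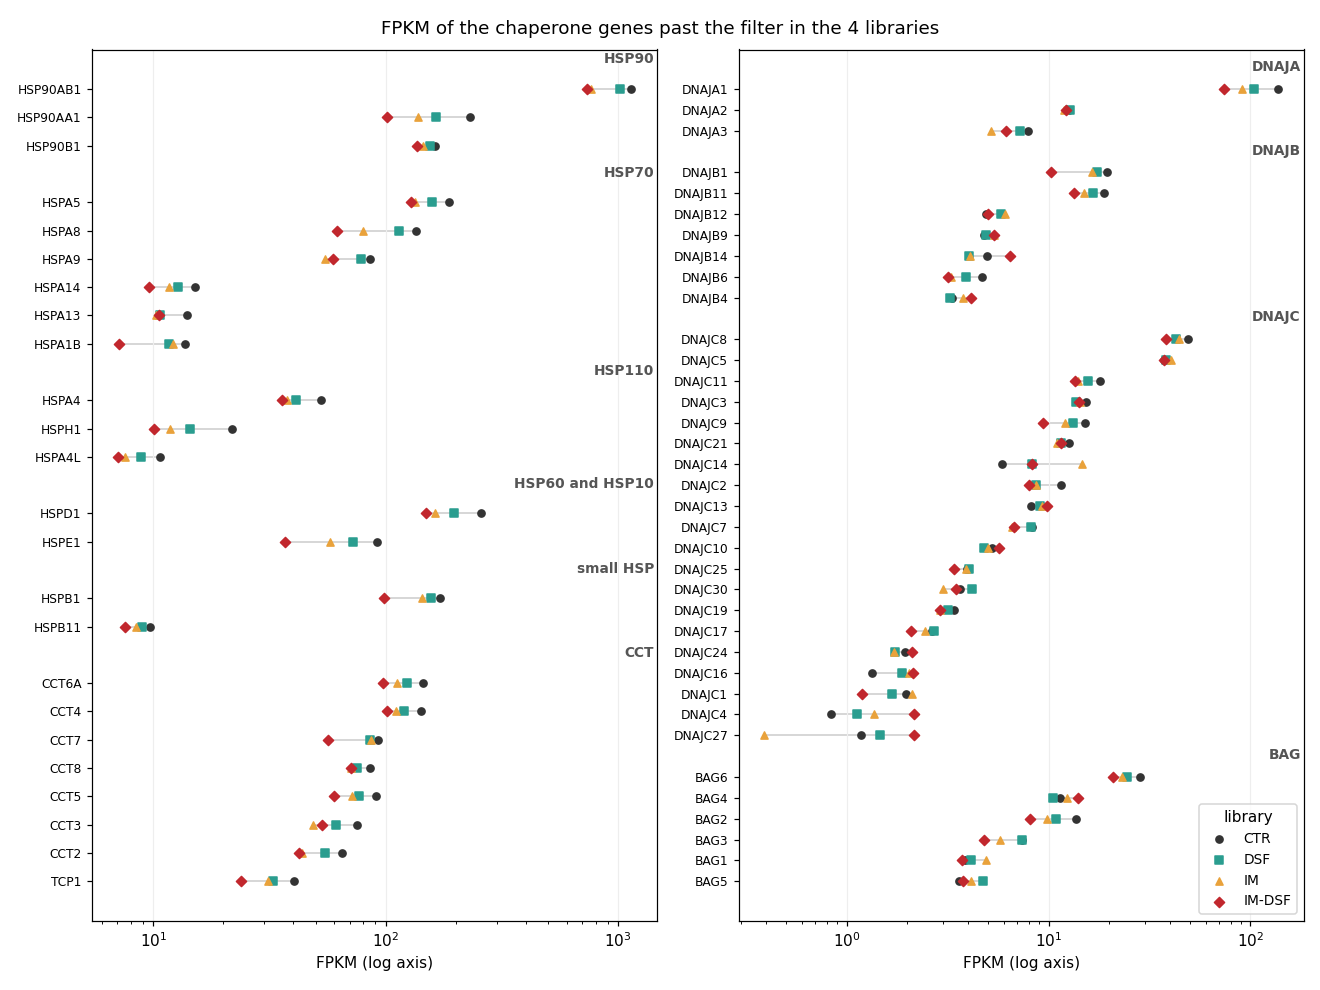
FPKM (log axis) of the 60 chaperone genes past the filter, grouped by class, with 1 point per library (black circle CTR, teal square DSF, orange triangle IM, red diamond IM-DSF) and a grey line over the range. In the HSP90, HSP110 and HSP60/HSP10 classes every gene runs from CTR down to IM-DSF, whereas the order varies among DNAJB, DNAJC and BAG genes.

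In IM against CTR, 12 of 60 members (20%) were at least 0.5 log2 units lower (1.41-fold on the log2(FPKM + 1) scale), against 5.67% of all genes past the filter, and 1 was that much higher, against 9.38%. Those 12 were HSPA8, HSPA9, HSP90AA1, HSP90AB1, HSPH1, HSPD1, HSPE1, DNAJA1, DNAJA3, DNAJC27, CCT2 and CCT3. The median difference of the members was -0.28, against 0.02 over all genes and -0.10 over genes with at least 20 FPKM. Among those abundant genes, 9 of 22 members were past 0.5 lower (40.9%), against 8.97%. No member was 1 log2 unit lower, against 0.891% of genes, and DNAJC14 was the 1 member that much higher, against 1.54%. With median-of-ratios scaling the background for 0.5 log2 units was 7.82% lower and 7.52% higher, while the members' counts given here are not rescaled.

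With DSF alone the members differed little. In DSF against CTR 1 member was at least 0.5 log2 units lower, HSPH1, against 2.81% of genes, and none was higher, against 3.49%. None was past 1 log2 unit in either direction, against 0.573% lower and 0.545% higher. Even so, 45 of 60 members (75%) lay below CTR, against 49.98% of all genes and 61.5% of genes with at least 20 FPKM. The members' median was -0.16, against 0.00 over all genes and -0.04 over those abundant genes. The 95% counting interval of the fold lay wholly under 1 for 37 of the 60 members, and no such count over all genes is given here. A fold is the ratio of FPKM values, and its interval reflects counting error alone and not how far separate cultures differ.

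In the combination lower values were found in further classes. In IM-DSF against CTR, 23 of 60 members (38.3%) were at least 0.5 log2 units lower, against 10.4% of genes, and 2 were higher (DNAJC4 and DNAJC27), against 12.2%. The members' median was -0.40, against 0.02 over all genes and -0.19 over genes with at least 20 FPKM. Of the 22 members at that level 15 were past 0.5 lower (68.2%), against 21.8% of the genes there. HSPE1, HSP90AA1, HSPA8 and HSPH1 were 1 log2 unit or more lower, against 1.74% of genes, and no member was that much higher, against 2.54%. With median-of-ratios scaling 13.7% of genes were past 0.5 lower and 9.71% higher, while the members' counts given here are not rescaled. By class the medians were -1.03 for HSP60/HSP10, -0.64 for HSP90, -0.58 for HSP70, -0.58 for CCT, -0.55 for HSP110, -0.55 for small HSPs, -0.32 for DNAJA, -0.23 for BAG, -0.11 for DNAJC and 0.02 for DNAJB, which was -0.05 with median-of-ratios factors. The HSP60/HSP10, HSP90, HSP70, CCT, HSP110 and small HSP medians lay lower than those of the J-domain and BAG classes, a difference that was not tested. The former classes are also the more abundant, with median levels from 14.5 FPKM (HSP110) to 159 (HSP90). Those of the J-domain and BAG classes ran from 5.10 (DNAJB) to 12.4 (DNAJA). HSP60/HSP10 and small HSPs held 2 genes each past the filter.

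**Figure D2:**
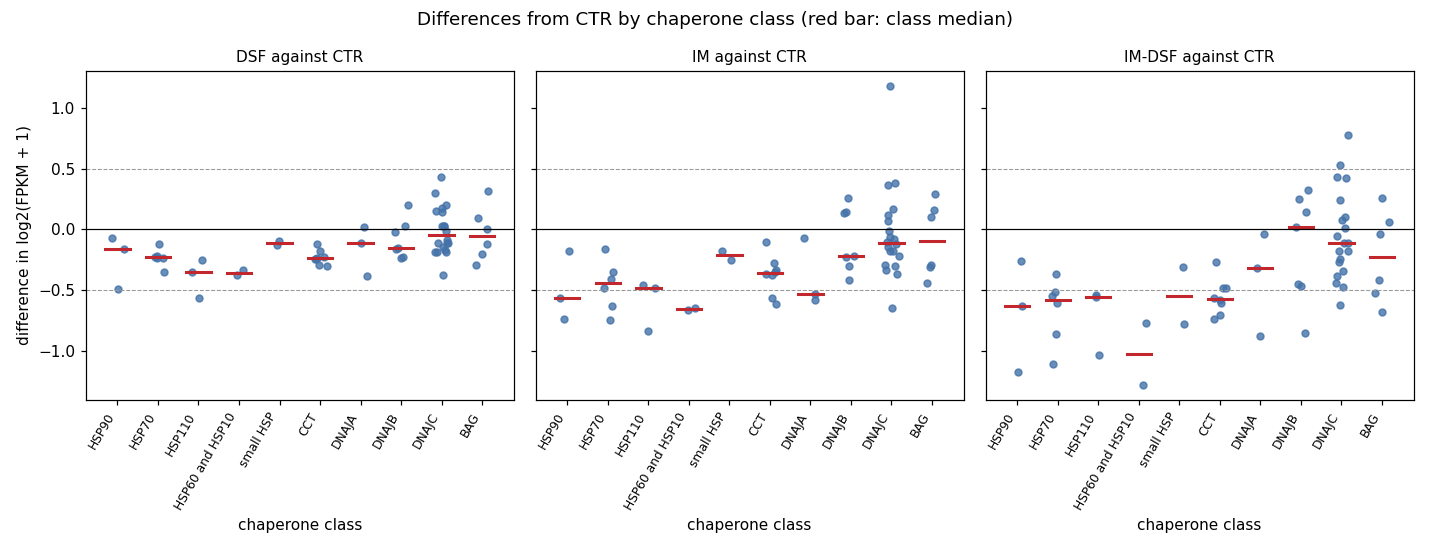
Difference from CTR in log2(FPKM + 1) for each of the 60 chaperone genes (points, spread sideways for sight only) by class, in DSF, IM and IM-DSF; red bars are class medians and dashed lines mark 0.5 log2 units. In IM-DSF the medians of the HSP90, HSP70, HSP110, HSP60/HSP10, small HSP and CCT classes lie beyond the lower dashed line, and that of the DNAJB class lies near 0.

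HSP90 genes were the most abundant class. HSP90AB1 (ENSG00000096384; chromosome 6, 44246166 to 44253888), the constitutive cytosolic HSP90, had 1137 FPKM in CTR and 1019 in DSF, against 767 in IM and 732 in IM-DSF. Both libraries with IM lay below both without it, by 0.674-fold for IM against CTR (95% interval 0.665 to 0.684) and by 0.718-fold for IM-DSF against DSF (0.707 to 0.729). HSP90AA1 (ENSG00000080824; chromosome 14, 102080738 to 102139699), the stress-inducible cytosolic form, had 231 FPKM in CTR and 164 in DSF, against 138 in IM and 102 in IM-DSF. Each drug was accompanied by a lower value, and the combination stood at 0.439 of CTR (0.427 to 0.452). The ratio of HSP90AB1 to HSP90AA1 was 4.92 in CTR and 6.22 in DSF, against 5.56 in IM and 7.21 in IM-DSF, so the inducible gene made up less of the cytosolic HSP90 RNA in every treated library. HSP90B1, the endoplasmic reticulum form, had 163, 156, 144 and 136 FPKM in the same order of libraries and passed the size rule in no contrast. HSP90AA1 overlaps exons of WDR20 on the opposite strand, and whether counting used strand is not given in the sources used here.

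Of the HSP70 genes, 6 of 12 were past the filter. HSPA8 (ENSG00000109971; chromosome 11, 123057489 to 123063230), the constitutive cytosolic HSC70 that also strips clathrin coats, had 134 FPKM in CTR and 114 in DSF, against 79.4 in IM and 61.8 in IM-DSF. The libraries with IM again lay below those without it, and IM-DSF was 0.460 of CTR (0.443 to 0.478). HSPA9, the mitochondrial HSP70 (mortalin), had 85.2, 78.1, 54.5 and 59.2 FPKM in the order CTR, DSF, IM, IM-DSF. Here the combination lay slightly above IM alone, at 1.09-fold (1.05 to 1.12), and DSF alone was 0.917 of CTR (0.892 to 0.943). HSPA5 (ENSG00000044574), the BiP protein of the endoplasmic reticulum, had 187, 159, 134 and 128 FPKM and fell by 0.55 log2 units in IM-DSF against CTR. HSPA14, which sits on ribosomes, had 15.1, 12.8, 11.7 and 9.56 FPKM, and HSPA13, a microsomal family member, had 13.9, 10.7, 10.2 and 10.6. HSPA13 was lower than CTR by about the same amount in all 3 treated libraries and passed the size rule in none.

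HSPA1B (ENSG00000204388; chromosome 6, 31827735 to 31830255), the classical stress-inducible HSP70, had a different profile. It had 13.7 FPKM in CTR and 11.7 in DSF, against 12.2 in IM and 7.11 in IM-DSF. The 3 libraries with no drug or 1 drug lay close together and the combination below them, at 0.518 of CTR (0.440 to 0.608) and 0.584 of IM (0.496 to 0.686). Its near-identical copy HSPA1A had 0.424, 0.248, 0.331 and 0.384 FPKM, and how reads that fit both copies were assigned is not given in the sources used here, so the division between them is uncertain. HSPA6, a strictly inducible HSP70, had 0.233, 0.373, 0.160 and 0.339 FPKM, under 1 FPKM in every library, and HSPA12A and HSPA12B were listed at 0.

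The same profile appeared in HSPA1B's co-chaperone DNAJB1 (HSP40) and in the small heat shock protein HSPB1 (HSP27), which holds unfolded proteins without ATP. DNAJB1 (ENSG00000132002; chromosome 19) had 19.5 FPKM in CTR and 17.4 in DSF, against 16.5 in IM and 10.3 in IM-DSF. Its combination value was 0.530 of CTR (0.474 to 0.591) and 0.627 of IM (0.560 to 0.700). HSPB1 (ENSG00000106211; chromosome 7) had 170, 156, 143 and 98.5 FPKM, and IM-DSF was 0.578 of CTR (0.548 to 0.610) and 0.688 of IM (0.651 to 0.726). All 3 genes were under 0.5 log2 units in each single drug against CTR and past it in each contrast of the combination. The contrasts of the combination all use the same IM-DSF library, and no count of this profile over all genes is given here. HSPB11, named as a small heat shock protein and known as a subunit of intraflagellar transport, had 9.66, 8.97, 8.44 and 7.58 FPKM and passed the size rule in no contrast. The other 6 HSPB genes were not past the filter.

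The HSP110 genes code for exchange factors of HSP70. HSPH1 (ENSG00000120694; chromosome 13, 31134974 to 31162388) had 21.8 FPKM in CTR and 14.4 in DSF, against 11.7 in IM and 10.1 in IM-DSF, and was 0.660 (0.621 to 0.701), 0.540 (0.507 to 0.575) and 0.464 (0.432 to 0.499) of CTR. On the log2(FPKM + 1) scale it was the lowest of the members past the filter in both single-drug contrasts, while by the ratio of FPKM DNAJC27, near the filter, was lower with IM (0.332 of CTR, 0.220 to 0.497). HSPA4 had 52.8, 41.2, 37.5 and 35.6 FPKM and HSPA4L had 10.7, 8.85, 7.52 and 7.03, and both were at least 0.5 log2 units lower in IM-DSF against CTR and in no other contrast.

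HSPD1 and HSPE1, which code for mitochondrial HSP60 and its lid HSP10, lie head to head on chromosome 2. RefSeq starts are 197500274 and 197499840 for HSPD1 (minus strand) and 197500379 for HSPE1 (plus strand). HSPD1 (ENSG00000144381) had 256 FPKM in CTR and 197 in DSF, against 163 in IM and 149 in IM-DSF. HSPE1 (ENSG00000115541) had 91.2, 72.2, 57.3 and 36.9. The genes kept nearly 1 ratio in CTR (2.81), DSF (2.73) and IM (2.85), and a higher one in IM-DSF (4.04). In the combination HSPE1 was 0.405 of CTR (0.375 to 0.437), and 0.645 of IM (0.595 to 0.699), while HSPD1 was 0.582 of CTR (0.567 to 0.598) and 0.914 of IM (0.888 to 0.941). Both are uncertain in part. HSPD1 has 17 pseudogene entries with 16.1% of the FPKM of gene and copies. HSPE1 shares exons with the read-through HSPE1-MOB4, which had 12.5, 13.98, 8.39 and 10.5 FPKM, and its 26 pseudogene entries held 21.9%.

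CCT subunits assemble into 1 ring, and their RNAs spanned a 3.58-fold range in CTR, from TCP1 at 40.4 FPKM to CCT6A at 145, and a 4.26-fold range in IM-DSF. All 8 past the filter were below CTR in each treated library. CCT2 had 64.9 FPKM in CTR and 54.5 in DSF, against 43.4 in IM and 42.3 in IM-DSF, and CCT3 had 74.9, 60.9, 48.4 and 53.2. These subunits were the ones past 0.5 log2 units with IM alone, and neither was lower in the combination than in IM by that amount. CCT7 (ENSG00000135624; chromosome 2) had 92.6, 85.3, 86.3 and 56.5 FPKM, and its combination value was 0.610 of CTR (0.581 to 0.640) and 0.654 of IM (0.624 to 0.687). As in HSPA1B, DNAJB1 and HSPB1, both single-drug differences from CTR were under 0.5 log2 units and all 3 contrasts of the combination were past it, which held for no other subunit. Those 3 contrasts share the IM-DSF library. TCP1 had 40.4, 32.6, 31.1 and 23.8 FPKM, CCT4 142, 120, 111 and 101, CCT6A 145, 123, 111 and 97.3, and CCT8 85.8, 75.5, 70.5 and 70.9. CCT6B was under the filter, as was CCT8L2. TCP1 and CCT4 overlap ACAT2 and COMMD1 on the opposite strand.

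J-domain genes were the most varied. DNAJA1 (farnesylated, a main partner of HSPA8) had 137 FPKM in CTR and 104 in DSF, against 90.8 in IM and 73.8 in IM-DSF, and was 0.541 of CTR (0.515 to 0.567) in the combination. Its close relative DNAJA2 had 12.6, 12.8, 11.9 and 12.2 FPKM, with intervals that include 1 in all 5 contrasts. DNAJA3, the mitochondrial J-protein, had 7.92, 7.25, 5.17 and 6.17 FPKM, so IM was lowest and the combination lay above it at 1.19-fold (1.06 to 1.34). The class thus held 1 gene at a high level and clearly lower with drugs, and another near 12 FPKM whose intervals all include 1.

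Among 7 DNAJB genes past the filter only DNAJB1 was past 0.5 log2 units lower in IM-DSF against CTR, and the class median was 0.02. DNAJB11, the partner of BiP in the endoplasmic reticulum, had 18.8 FPKM in CTR and 16.6 in DSF, against 15.0 in IM and 13.3 in IM-DSF. DNAJB6, an inhibitor of polyglutamine aggregation, had 4.70, 3.88, 3.28 and 3.16 FPKM, but 8 pseudogene entries held 91.6% of the FPKM of gene and copies, which leaves its level uncertain. DNAJB14, a membrane J-protein of the endoplasmic reticulum, had 4.94, 4.04, 4.10 and 6.45 FPKM. Both single drugs lay under CTR and the combination above it, at 1.31-fold (1.19 to 1.43). DNAJB4, listed as HSF1-inducible, had 3.31, 3.25, 3.77 and 4.13 FPKM, passed the size rule in no contrast and shares exons with GIPC2, which was listed at 0 or near it.

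The 20 DNAJC genes past the filter centred on a median of -0.11 for IM-DSF against CTR, with 1 lower (DNAJC9) and 2 higher. DNAJC8, a spliceosome-associated protein and the most abundant, had 48.8, 42.8, 44.0 and 38.3 FPKM, but 1 pseudogene held 30.5% of gene and copy. Summed with that copy it was -0.58 instead of -0.34. DNAJC9, a histone chaperone, had 15.1, 13.2, 12.1 and 9.40, and DNAJC2, a ribosome-bound J-protein, had 11.5, 8.65, 8.68 and 8.02. DNAJC1 had 1.97, 1.68, 2.11 and 1.19 FPKM. DNAJC27, which carries a RAB-like GTPase domain, had 1.18 FPKM in CTR and 1.46 in DSF, against 0.392 in IM and 2.15 in IM-DSF, and was 5.50 times IM in the combination (3.78 to 8.17). DNAJC4 had 0.839, 1.12, 1.37 and 2.16 FPKM, and was 2.58 times CTR in the combination (1.72 to 4.03). Both are near the filter, where DNAJC27 (mean 1.30 FPKM), DNAJC4 (1.37) and DNAJC1 (1.74) were the members just inside and DNAJC18 (0.954), DNAJA4 (0.909) and DNAJB2 (0.524) those just outside.

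DNAJC14 (ENSG00000135392; chromosome 12, 55820960 to 55830824), a J-protein, was the member highest in IM against CTR. It had 5.85 FPKM in CTR and 8.25 in DSF, against 14.6 in IM and 8.24 in IM-DSF, a 2.49-fold difference for IM (2.20 to 2.82). The entry AC023055.1, which shares exons with it on the same strand, had 8.83, 3.81, 0.143 and 3.56 FPKM, so DNAJC14 was highest and AC023055.1 lowest in IM, and DNAJC14 was lowest and AC023055.1 highest in CTR, while both were slightly higher in DSF than in IM-DSF. How reads over shared exons were divided was not tested, and the DNAJC14 values are uncertain. It is known from the endoplasmic reticulum membrane, but the list of compartments leaves it unassigned, so the counts for the endoplasmic reticulum given here do not hold it. The same doubt applies to DNAJB4, DNAJB11, DNAJC4, DNAJC9, DNAJC10, DNAJC25, HSPA14, HSPA1B and HSPE1, the other members that share exons with a gene entry on their strand. On the opposite strand DNAJB1 overlaps TECR and DNAJC27 overlaps DNAJC27-AS1.

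Several BAG proteins bind HSP70 and release its nucleotide. BAG6, which guards membrane proteins before insertion, had 28.4 FPKM in CTR and 24.5 in DSF, against 22.98 in IM and 20.9 in IM-DSF. BAG2, an inhibitor of the ubiquitin ligase CHIP, had 13.7, 10.9, 9.81 and 8.13, and BAG3, an HSF1-inducible factor of selective autophagy, had 7.38, 7.42, 5.76 and 4.81. BAG2 and BAG3 were at least 0.5 log2 units lower in IM-DSF than in CTR. BAG4 had 11.5, 10.5, 12.4 and 13.9 FPKM and BAG5 3.60, 4.71, 4.14 and 3.78, with neither past the size rule in any contrast.

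In IM-DSF against CTR, 19 of 35 members of cytosol and nucleus were at least 0.5 log2 units lower (median -0.55), as were 3 of 8 mitochondrial members (median -0.35) and 1 of 11 members of the endoplasmic reticulum (HSPA5, median -0.12), against 10.4% of all genes past the filter, so the share in the endoplasmic reticulum was near that background. Of the 6 members with no assigned compartment none was that much lower (median 0.16). DNAJC4 among the mitochondrial members and DNAJC27 among the unassigned were that much higher, against 12.2% of genes. In IM against CTR the medians were -0.31, -0.43 and -0.10 in the same order. Summed FPKM in IM-DSF came to 0.634 of CTR for cytosol and nucleus, 0.587 for mitochondrion and 0.778 for endoplasmic reticulum. The difference between compartments was not tested, since 1 library per group leaves no spread to set it against.

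The list of 15 members induced through HSF1 leaves out the CCT genes and was chosen with earlier results of these data known. Of the 13 listed members past the filter, 12 were at least 0.5 log2 units lower in IM-DSF against CTR, with a median of -0.86. The exception was DNAJB4. Of the 47 other members 11 were, with a median of -0.27. The share was 10.4% over all genes past the filter and 21.8% over genes with at least 20 FPKM. For IM alone the counts were 7 of 13 (median -0.57) and 5 of 47 (median -0.22), against 5.67% of all and 8.97% of abundant genes. The 7 were HSPA8 and HSP90AB1, called constitutive above, with HSP90AA1, HSPH1, HSPD1, HSPE1 and DNAJA1. Not past the rule with IM were HSPA4L (-0.46), BAG3 (-0.31), HSPB1 (-0.25), DNAJB1 (-0.23), HSPA1B (-0.16) and DNAJB4 (0.15). In DSF against CTR the medians were -0.23 and -0.12. The HSF1-inducible members are also the more abundant, with a median mean level of 64.4 FPKM against 11.3, and abundant genes as a whole lay lower, as given above. For the members with a heat shock element, printed above, the median of the 6 past the filter in IM-DSF against CTR was -0.83, with 5 of them past 0.5 lower. For 48 members with a window that lacks the motif the median was -0.33, with 16 past 0.5 lower. The 6 were also more abundant, at a median level of 130 FPKM against 11.5 for the 48, and the part of the motif was not tested. The 33 other genes past the filter that hold the motif had a median of 0.07, with 5 lower and 3 higher, at a median level of 3.995 FPKM. HSF1 itself had 6.26 FPKM in CTR and 7.38 in DSF, against 7.08 in IM and 5.63 in IM-DSF, and passed the size rule in no contrast. Of the genes with the endoplasmic reticulum stress element, HSPA5 was past the size rule in the combination and HSP90B1 was not.

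The effect of IM could be read in a second pair of libraries, since the contrasts of IM with CTR and of IM-DSF with DSF share none. In the latter, 8 of 60 members (13.3%) were at least 0.5 log2 units lower, against 6.92% of all genes and 12.8% of genes with at least 20 FPKM. Of the 22 members at that level 5 were (22.7%). Higher by that amount were 2 members (DNAJB14 and DNAJC4), against 7.66%. The members' median was -0.22, against 0.01 over all genes and -0.15 over genes with at least 20 FPKM. With median-of-ratios scaling 8.71% of genes were lower and 6.37% higher, while the members' counts given here are not rescaled. The 8 were HSPA8, HSP90AA1, HSPE1, HSPA1B, HSPB1, DNAJB1, BAG3 and CCT7. HSPA8, HSP90AA1 and HSPE1 were past 0.5 lower in both pairs, 5% of members against 1.82% of all genes and 3.53% of genes with at least 20 FPKM. No member was past 1 log2 unit in this pair, against 1.05% lower and 1.33% higher. By sign, 42 of 60 members were below in both pairs (70%), against 33.0% of all genes and 53.5% of the abundant ones.

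**Figure D3:**
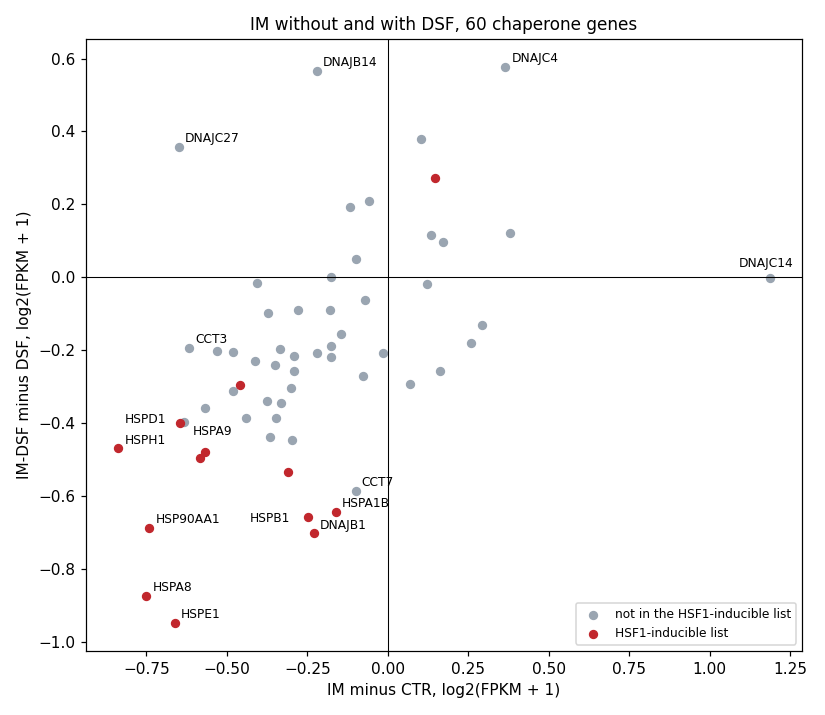
Difference in log2(FPKM + 1) with IM in each of the 60 chaperone genes, without DSF (horizontal, IM minus CTR) and with DSF (vertical, IM-DSF minus DSF); red points are HSF1-inducible genes. HSPA8, HSP90AA1 and HSPE1 lie beyond 0.5 log2 units lower on both axes, while DNAJB1, HSPB1, HSPA1B and CCT7 lie that low only on the vertical axis.

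For DSF the matching pair was IM-DSF against IM. There 7 members (11.7%) were at least 0.5 log2 units lower (HSPA1B, DNAJB1, HSPE1, CCT7, HSPB1, DNAJC1 and DNAJC14). The share was 4.65% of all genes and 7.07% of genes with at least 20 FPKM. Higher by that amount were 2 members (DNAJC27 and DNAJB14), against 3.19%. DNAJC27 was also past 1 log2 unit, against 0.7% higher, and none was that much lower, against 1.04%. Without members that share exons with another gene on the same strand, 4 of 50 were past 0.5 lower. Rescaled to TPM, 6 members were lower and 3 higher, against 5.42% and 5.77% of genes. No member was past 0.5 log2 units in both DSF pairs, and 32 of 60 were below in both, against 27.7% of all genes and 43.8% of the abundant ones.

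The departure from additivity, which subtracts both single-drug differences from that of the combination (each taken against CTR), had a median of 0.05 over the members. It was most negative in DNAJC14 (-1.19), CCT7 (-0.49) and HSPA1B (-0.48), followed by DNAJB1 (-0.47), and HSPB1 stood at -0.41. It was most positive in DNAJC27 (1.01), DNAJB14 (0.79) and CCT3 (0.43). Past 0.5 in size were 1 member below and 2 above, against 846 and 600 of 11004 genes. The value equals CTR plus IM-DSF less IM and DSF, so each departure rests on 4 single libraries.

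**Figure D4:**
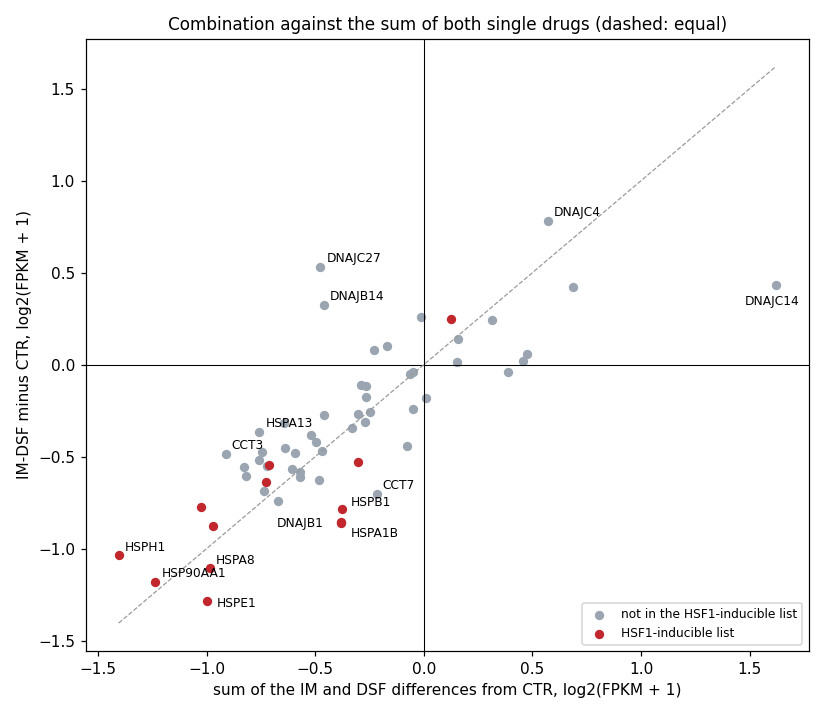
IM-DSF minus CTR (vertical) against the sum of IM minus CTR and DSF minus CTR (horizontal), both in log2(FPKM + 1), for the 60 chaperone genes; red points are HSF1-inducible and the dashed line marks equality. HSPA1B, DNAJB1, HSPB1 and CCT7 lie 0.41 to 0.49 below the line, HSPH1 lies above it, and both axes use the CTR library.

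Other genes of the chaperone systems were taken from a fixed list of 44, of which 39 were past the filter. In IM-DSF against CTR 13 of the 39 were at least 0.5 log2 units lower and 1 higher, with a median of -0.29, against 10.4% lower and 12.2% higher among all genes past the filter. In IM against CTR 8 were lower and none higher, against 5.67% and 9.38%. The lowest in the combination were FKBP4 (-0.96) and STIP1 (-0.83), co-chaperones that bind the C-terminal end of HSP90, PFDN2 (-0.90), a prefoldin subunit that hands actin to CCT, and SERPINH1 (-0.87), the collagen chaperone. FKBP4 had 59.95, 51.5, 35.4 and 30.3 FPKM in the order CTR, DSF, IM, IM-DSF, and STIP1 had 66.6, 56.1, 43.0 and 36.9. CDC37, which loads kinases onto HSP90, was the 1 gene higher by 0.5 log2 units (0.55), with 13.9, 14.1, 17.0 and 20.9 FPKM, and SIL1, an exchange factor of BiP, was the next highest without passing the rule. GRPEL2, an exchange factor of mortalin named after its values were seen, had 7.10, 6.34, 1.48 and 4.59 FPKM.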

How the data were processed

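The authors deposited 1 table of FPKM values for 50868 genes in 4 libraries, per the file headers. The submitters' processing notes name HISAT2 2.0.4 and GRCh38.p14. The kit is a stranded mRNA kit, per the labels' protocols, and what counter, annotation or gene lengths were used, and whether counting used strand, is not given in the sources used here. GENCODE 29 matched 50111 genes and gave exon lengths and overlaps. Since the values are not counts, differences were taken as log2(FPKM + 1) in 11004 genes that averaged 1 FPKM or more; on this scale the fold of a low gene is understated.

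Depth was read from single-exon genes, whose FPKM times length is a multiple of 1 fragment. This gave denominators of 14.5, 14.7, 15.8 and 12.4 M fragments (CTR, DSF, IM, IM-DSF; M is 1e+06), with 86.4% to 93.3% of such genes within 0.05 of a whole number. Approximate fragment numbers gave exact conditional binomial 95% intervals of folds (scipy 1.17.1), which PCR copies make too narrow. The size rules are 0.5 and 1 log2 units. The rule of 0.5 was tried on simulated data with counting error alone, which cannot show how far separate cultures differ.

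The members and all lists (classes, compartments, HSF1-inducible genes, other chaperone genes, markers) were chosen with earlier results of these data known. Named are members past 1 log2 unit, those of highest level, lowest and highest difference in IM-DSF against CTR in each class, and the 3 most positive and negative departures from additivity. In the list of other genes, 1 symbol (DPH4) matched no entry. Of 60 members past the filter, 10 share exons with another gene on the same strand and 27 on the opposite one. The endoplasmic reticulum stress element was added after the other tests were set, and protein sequences were not used here. Alternatives were another pseudocount, filters, TPM rescaling and 3 scalings, and, added after seeing the data, leaving out overlapping members, summing with pseudogenes, and an abundant background. Python 3.11.15, numpy 2.4.6, pandas 2.3.3 and matplotlib 3.10.9 were used.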

Additional observations from a re-analysis of the deposited data

Results flagged for a closer look

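In 7 members a drug's difference had opposite signs without and with the other drug, and both 95% counting intervals of the fold lay off 1. No such count over all genes is given here. By sign alone, 12 of 60 members had opposite signs for IM, against 3204 of 11004 genes. For DSF 21 of 60 members did, against 4924 of 11004 genes. With 1 library per group the difference between the effects was not tested. The values below are the second effect minus the first, in log2(FPKM + 1).

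DNAJB14 was lower with each single drug and higher when the second was added, a difference of 0.79 for either drug. DNAJB12, a membrane J-protein of the endoplasmic reticulum, did the reverse, at -0.44 for either drug (4.91 FPKM in CTR and 5.79 in DSF, against 6.07 in IM and 4.99 in IM-DSF). DNAJC27 was lower with IM alone and higher with IM on top of DSF, a difference of 1.01. For DSF, the effects were negative without IM and positive with it in CCT3 (0.43), DNAJC10 (0.27) and HSPA9 (0.24), and the reverse in DNAJC14 (-1.19), whose values are uncertain because of AC023055.1. CCT3, DNAJC10, DNAJB12 and HSPA9 moved by less than 0.5 log2 units with DSF in both pairs.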

How the results depend on the processing

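No result reversed its direction for the members as a whole. The members' median stayed negative in all 5 contrasts under every alternative, and without a filter it was -0.24 in IM-DSF against CTR. Counts moved past 1.5 times only where they were 7 or fewer. With a pseudocount of 0.1, IM against CTR held 3 members past 0.5 higher and 1 past 1 lower, and IM-DSF against CTR held 1 past 1 higher. With a mean of at least 5 FPKM, 0 members were past 0.5 higher in IM-DSF against CTR, IM or DSF, and 0 past 1 higher against IM. Rescaled to TPM, IM against CTR had 2 past 0.5 higher and 1 past 1 lower, DSF against CTR had 2 past 0.5 lower, and IM-DSF against CTR had 1 past 1 higher. With median-of-ratios factors, DSF against CTR had 2 past 0.5 lower, IM-DSF against CTR had 1 past 0.5 higher, and IM-DSF against DSF had 1 past 1 lower. With equal sums outside the mitochondrial genome, DSF against CTR had 2 past 0.5 lower. Without members that share exons on the same strand, IM against CTR had 0 past 0.5 and 0 past 1 higher, IM-DSF against CTR had 1 past 0.5 higher, IM-DSF against IM had 4 past 0.5 lower, and IM-DSF against DSF had 1 past 0.5 higher. The causes of these moves were not tested, except that stricter filters and left-out members test fewer genes. Of the medians of classes and compartments under the alternatives, 39 moved by more than the median counting half-width of their members and 546 did not. Without a filter, the HSP70 median was -0.25 in IM against CTR, -0.44 in IM-DSF against CTR, 0.022 against IM and -0.17 against DSF, the small HSP median was -0.16 in IM-DSF against CTR, -0.087 against IM and -0.11 against DSF, the cytosol and nucleus median was -0.42 in IM-DSF against CTR, and in IM against CTR the DNAJA median was -0.30 and that of DNAJB -0.029. At a mean of at least 5 FPKM, IM against CTR gave -0.30 for BAG, -0.048 for DNAJB and -0.63 for mitochondrion, IM-DSF against CTR gave -0.47, -0.22 and -0.52 in the same order, IM-DSF against IM gave -0.20 for DNAJB, and IM-DSF against DSF gave -0.39 for mitochondrion. Rescaled to TPM, the HSP90 median was -0.61 in IM and -0.19 in DSF against CTR, and -0.031 in IM-DSF against IM. With median-of-ratios factors, IM against CTR gave -0.43 for CCT, -0.72 for HSP60/HSP10 and -0.64 for HSP90, IM-DSF against CTR gave -0.66, -1.11 and -0.72 in the same order, and IM-DSF against DSF gave -0.53 for HSP90. With equal sums outside the mitochondrial genome, IM against CTR gave -0.43, -0.72 and -0.64 for these classes, and IM-DSF against IM gave -0.072, -0.29 and 0.0073. Without members that share exons, HSP70 was -0.56 in IM against CTR and -0.013 in IM-DSF against IM, and HSP60/HSP10, then HSPD1 alone, was -0.78 in IM-DSF against CTR, -0.13 against IM and -0.40 against DSF. Of the values of named members 100 moved and 1190 did not. Of 1075 values of named members under other scalings or the other pseudocount, 17 changed sign, none of them a called difference. No paired analysis was possible because each group has 1 library, and for the same reason no replicate could be left out.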
